A study of Mus musculus with 2 samples.

Results

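The apelin, vascular endothelial growth factor (VEGF) and angiopoietin axes are 3 ligand and receptor systems through which kidney epithelium, mural cells and endothelium signal to blood vessels. They were followed here through 9 genes of the 31053 in the deposited matrices: Apln, Aplnr, Esm1, Angpt2, Angpt1, Tek, Vegfa, Kdr and Flt1. The members were fixed by name, with earlier results of these data known. Their unique molecular identifiers (UMIs, each marking 1 captured RNA molecule) were summed per endothelial subtype and per cell class in both libraries. The libraries were made from kidney cells of mice aged 5 weeks, with 1 kidney taken per mouse, and dead cells and red cells were removed before capture. The wild type library (WT) was labelled as control, and the other library was labelled Kif3aΔTub, genotype KO and disease. Kif3a encodes a motor subunit needed to build primary cilia, and the name denotes its deletion in tubules. The labels give neither the Cre driver nor the strain, and they do not say how many mice went into a library. Each genotype had 1 library, so every comparison is between 2 libraries, with no replicate spread and no p-value. The intervals printed cover counting error only, and polymerase errors or incomplete capture of molecules are outside them. Per its title, the study linked procachectic factors of chronic kidney disease to muscle wasting.

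In the VEGF axis, podocytes and tubules release VEGF-A (Vegfa), which endothelium reads through the signalling receptor VEGFR2 (Kdr), while VEGFR1 (Flt1) binds the ligand tightly and acts largely as a decoy. In the angiopoietin axis, angiopoietin-1 (Angpt1) activates the endothelial receptor TIE2 (Tek) and keeps vessels quiet, and angiopoietin-2 (Angpt2), made by endothelium itself, is a context-dependent antagonist. Apelin (Apln) is a peptide ligand of the G protein-coupled receptor APJ (Aplnr), and endocan (Esm1) is a secreted proteoglycan of endothelium. Apln, Esm1 and Angpt2 are widely used as markers of tip cells, the leading cells of a vessel sprout. In GENCODE vM21 on GRCm38, which is mm10, the members are protein-coding genes on 8 chromosomes. The apelin genes are Apln (ENSMUSG00000037010, chrX:48025146-48034853, minus strand) and Aplnr (ENSMUSG00000044338, chr2:85136225-85139923, plus strand), and Esm1 (ENSMUSG00000042379) lies at chr13:113209659-113218098 on the plus strand. The angiopoietin genes are Angpt2 (ENSMUSG00000031465, chr8:18690263-18741562, minus strand), Angpt1 (ENSMUSG00000022309, chr15:42424723-42676977, minus strand) and Tek (ENSMUSG00000006386, chr4:94739289-94874976, plus strand). The VEGF genes are Vegfa (ENSMUSG00000023951, chr17:46016993-46032369), Kdr (ENSMUSG00000062960, chr5:75932827-75978458) and Flt1 (ENSMUSG00000029648, chr5:147561604-147726011), all on the minus strand.

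Promoters were read from RefSeq (GRCm38.p6), where 6 of the 9 members had an entry. Those of Apln, Esm1 and Kdr are shown because they contrast genes that were far higher in the knockout endothelium, Apln and Esm1, with the receptor gene Kdr, which differed little. Each run is the 250 bases just before the transcript start, 5′ to 3′ on the gene's strand. Capitals mark the string AGGAA or its reverse complement TTCCT. It is only 1 form of the sites, built around GGAA, of the ETS family, to which the endothelial factors ERG and FLI1 belong. The windows are chrX:48034854-48035103 (minus strand) for Apln, chr13:113209409-113209658 (plus strand) for Esm1 and chr5:75978456-75978705 (minus strand) for Kdr.
Apln: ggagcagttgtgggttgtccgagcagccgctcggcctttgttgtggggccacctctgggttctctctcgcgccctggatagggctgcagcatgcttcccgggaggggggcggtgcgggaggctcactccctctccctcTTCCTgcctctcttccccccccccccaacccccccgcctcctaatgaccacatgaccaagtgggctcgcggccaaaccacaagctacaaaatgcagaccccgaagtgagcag
Esm1: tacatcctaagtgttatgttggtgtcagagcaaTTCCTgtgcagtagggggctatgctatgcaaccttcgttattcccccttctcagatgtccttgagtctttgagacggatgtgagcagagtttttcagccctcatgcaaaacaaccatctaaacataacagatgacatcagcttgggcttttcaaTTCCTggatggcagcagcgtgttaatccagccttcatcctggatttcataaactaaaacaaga
Kdr: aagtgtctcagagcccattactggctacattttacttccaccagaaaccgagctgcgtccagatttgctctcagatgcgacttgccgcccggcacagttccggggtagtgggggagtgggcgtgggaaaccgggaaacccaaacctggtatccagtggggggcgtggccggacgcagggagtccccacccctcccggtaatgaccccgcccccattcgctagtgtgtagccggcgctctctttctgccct
The Apln window held 1 match and the Esm1 window 2, and the Kdr window held 0. The Kdr window does hold the shorter GGAA and its reverse complement TTCC, so its 0 is for the marked string only. Of all 32851 promoter windows of this length, 60.3% held this short motif on either strand, so a match is common and says nothing of binding. The first Tek, Vegfa and Flt1 windows held 2 matches each. No window of these 3 genes at the 5′ start, nor those of Apln, Esm1 and Kdr, held the hypoxia response core ACGTG (16.6% of all windows), the AP-1 site TGACTCA (4.46%) or the forkhead site GTAAACA (3.17%), searched on both strands. A second, downstream Vegfa window held 1 hypoxia response core.

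The filters left 4317 wild type cells (median depth 7771 UMIs) and 7066 knockout cells (7799 UMIs). Median mitochondrial shares were 26.8% and 7.54%, and 2564 wild type barcodes (37.0%) and 706 knockout barcodes (8.88%) were removed at 50% or more. Kif3a itself stood at 8.09 CPM (the usual CPM scale: a gene's UMIs relative to all UMIs of that class and library) in wild type and 16.3 CPM in knockout proximal tubule-like cells, and at 21.8 and 11.1 CPM in principal-like cells. The deleted part of the gene is not given in the labels, so these 3′ end counts check the labels only if it holds the counted end, and the direction in proximal tubule went against the label. Wild type and knockout therefore stand below for the libraries labelled so. The libraries shared 20 barcodes, 3 of them in the endothelium. Endothelium-like cells numbered 155 (3.59% of cells, 648776 UMIs) in wild type and 474 (6.71%, 1756624 UMIs) in knockout. All 9 pan-endothelial markers (Pecam1, Cdh5, Emcn, Egfl7, Eng, Cldn5, Esam, Robo4 and Ramp2) were found in both libraries, with summed levels of 9979 and 9809 CPM. Median depth was 2339 and 2703.5 UMIs per endothelium-like cell.

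Markers of other cells also differed between the 2 sets of endothelium-like cells. The 8 principal cell markers summed to 15.4 CPM in wild type, with Aqp4, Scnn1b, Scnn1g, Avpr2 and Hsd11b2 at 0, and to 295 CPM in knockout, with none at 0. Of the 9 proximal tubule markers, 1 was at 0 in each library (Slc7a13), and the sum was 439 CPM in wild type against 31.3 CPM in knockout. The 5 neutrophil markers summed to 1.54 CPM, with S100a8, S100a9, Retnlg and Mmp9 at 0, against 56.4 CPM, with Retnlg at 0. Injured tubule markers summed to 140 and 396 CPM, and mural markers to 47.8 and 126 CPM, with Pdgfrb at 0 in both. The part of these RNAs in the results that follow was not tested.

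In endothelium-like cells, Apln, Aplnr, Esm1 and Angpt2 were each more than 4-fold higher in the knockout library, the receptors Tek, Kdr and Flt1 were within 1.5-fold, and Vegfa was lower. Of the 8 members with at least 20 UMIs over both libraries, 4 were at least 1.5-fold higher, against 12.9% of all 9017 such genes, and 1 was at least 1.5-fold lower, against 10.9% of them. Ranked by log2 ratio from the highest, Apln was 10th, Esm1 41st, Angpt2 50th and Aplnr 51st of these 9017 genes, and Vegfa was 8894th. The median log2 ratio was 1.5 over the 8 members and 0.02 over all genes tested. Because the members were chosen with earlier results of these data known, these counts and ranks describe the set and do not test it. Apln, Aplnr, Esm1 and Angpt2 had 1, 7, 14 and 4 wild type UMIs, so they reached 20 UMIs only through the knockout library. The plot of member ratios shows the 4 high genes, whose intervals lie wholly above 1.5-fold. Endothelium was also picked by marker UMIs in each cell. A cell then needed at least 3 UMIs of pan-endothelial markers and at most 1 of podocyte, mural, immune and fibroblast markers together. In the 67 and 184 cells so picked, 7 members were at least 1.5-fold higher. The log2 ratios were then 1.61 for Tek, 1.75 for Kdr and 2.13 for Flt1. Of the cells picked so, only 46 in wild type and 173 in knockout were also endothelium-like. The part of the other picked cells in these ratios was not tested. Podocyte markers summed to 937 CPM in wild type and 623 CPM in knockout endothelium-like cells, so the limit on other markers also left out endothelium-like cells. Its part in these ratios was not tested either. The small receptor ratios hold for the clustered endothelium and not for that choice of cells. With the subtypes described below weighted equally, the log2 ratio was 0.71 for Esm1 and 1.16 for Aplnr.

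**Figure D1:**
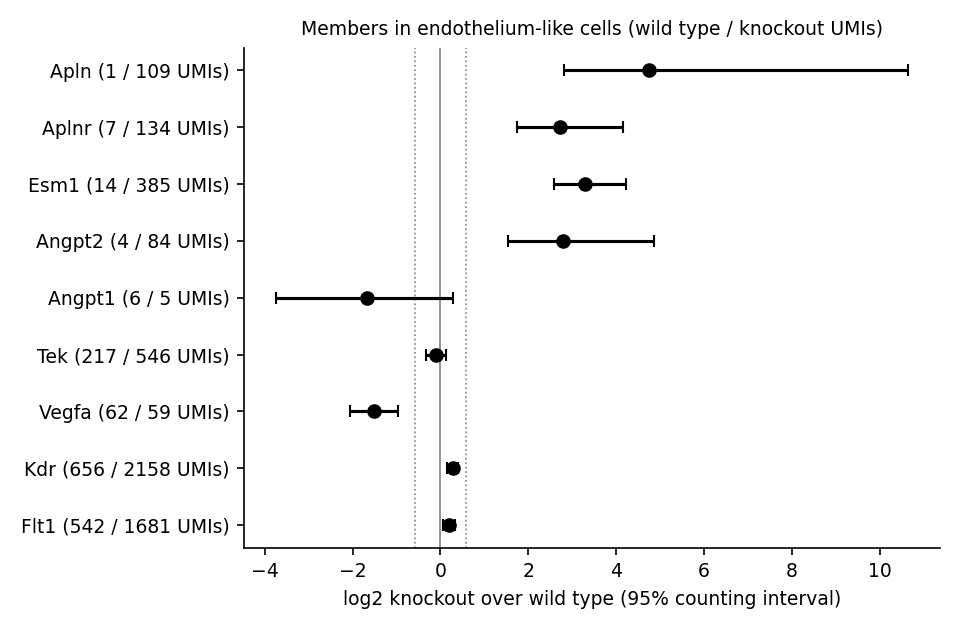
Log2 ratio of knockout over wild type (x axis) for the 9 members in endothelium-like cells, with UMIs of wild type and knockout beside each name; bars are exact 95% counting intervals and dotted lines mark 1.5-fold. Apln, Aplnr, Esm1 and Angpt2 lie right of the upper dotted line, Vegfa lies left of the lower one, and Tek, Kdr and Flt1 lie between the lines.

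The apelin ligand gene was almost absent from wild type endothelium. Apln had 1 UMI among 155 wild type cells (1.54 CPM, 95% Poisson interval 0.04 to 8.59) and 109 UMIs in 41 of 474 knockout cells (62.1 CPM, 51.0 to 74.9). The log2 ratio was 4.75 (2.82 to 10.65), from a wild type count too low to set its size. At most 18 UMIs came from a single cell, and the 5 richest knockout cells held 43.1% of the UMIs. In wild type kidney 40 of the 47 Apln UMIs lay in proximal tubule-like cells, the most numerous class, at 1.33 CPM beside 1.11 CPM in all kept cells. In knockout 109 of 135 lay in endothelium, where all kept cells stood at 1.71 CPM. In knockout proximal tubule-like cells Apln stood at 0.78 CPM (9 UMIs), a log2 ratio of -0.72 (-2.01 to 0.29) that includes no difference.

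The apelin receptor gene Aplnr was nearly restricted to endothelium, which held 7 of its 7 wild type UMIs and 134 of its 140 knockout UMIs. Its level was 10.8 CPM (4.34 to 22.2) in wild type and 76.3 CPM (63.9 to 90.3) in knockout endothelium, a log2 ratio of 2.73 (1.74 to 4.16). The wild type UMIs came 1 to a cell from 7 cells, and the knockout UMIs came from 65 cells with at most 7 in a cell.

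Esm1 showed the same restriction, with 14 of 15 wild type UMIs and 385 of 418 knockout UMIs in endothelium. Its level was 21.6 CPM (11.8 to 36.2) in wild type and 219 CPM (198 to 242) in knockout endothelium, a log2 ratio of 3.30 (2.58 to 4.23). Of the 14 wild type UMIs, 12 lay in the 5 richest of 7 positive cells, while the knockout UMIs were spread over 113 cells, the 5 richest holding 19.7%.

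Shares of cells with a UMI were set side by side after thinning each cell to 1000 UMIs, which left out 13 wild type and 39 knockout endothelium-like cells. An Esm1 UMI was then seen in 2 of 142 wild type cells (1.41%, Clopper-Pearson 0.17 to 5.00) and 74 of 435 knockout cells (17.0%, 13.6 to 20.9), against 4.52% and 23.8% unthinned. Aplnr was seen in 1.41% (0.17 to 5.00) and 8.05% (5.67 to 11.0) of thinned cells, against 4.52% and 13.7% unthinned. Apln was seen in 0 of 142 wild type cells, which allows a share of up to 2.11%, and in 20 of 435 knockout cells (4.60%, 2.83 to 7.01), against 0.65% and 8.65% unthinned. Angpt2 gave 1.41% (0.17 to 5.00) and 3.91% (2.29 to 6.18), so its thinned shares were not distinguishable at this depth. In proximal tubule-like cells, a class that should lack endothelial genes, the thinned shares of these 4 genes were at most 0.31%, with median depths of 8972 and 9224 UMIs before thinning.

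The endothelium was divided into 7 subclusters without the member genes, and markers named 5 of them. Glomerular-like cells, the fenestrated capillaries of the filter, formed subcluster 1 (87 wild type and 166 knockout cells, led by Meg3 and Dlk1) and subcluster 2 (6 and 68 cells, led by Gm14226 and Tbx3os1). Subcluster 2 also passed the arterial markers Gja5, Efnb2 and Hey1, and subcluster 1 the capillary and venous markers Nr2f2, Igfbp5 and Cd36. Capillary and venous-like cells formed subcluster 3 (4 and 110 cells, led by Glycam1, with Plvap high), arterial-like cells subcluster 5 (10 and 13 cells) and descending vasa recta-like cells, which also carried arterial markers and lost the name at a finer subclustering, subcluster 6 (8 and 16 cells). Subcluster 0 (34 and 73 cells, led by Calca and Spp2) and subcluster 4 (6 and 28 cells, led by Timp4 and Rbp7) stayed unnamed. Since 110 of the 114 capillary and venous-like cells were from the knockout library, this subtype cannot be told apart from that library. Its 240 knockout UMIs of principal cell markers (639 CPM, none of 8 at 0) were the counterpart of 0 UMIs in its 4 wild type cells.

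All 4 high genes were found in the capillary and venous-like cells of the knockout, at 155 CPM (Angpt2) to 344 CPM (Esm1). These cells held most of the Apln, Aplnr and Angpt2 UMIs, while most Esm1 UMIs lay in the more numerous glomerular-like cells, at a similar level of 307 CPM. The plot of levels by subcluster shows both patterns.

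**Figure D2:**
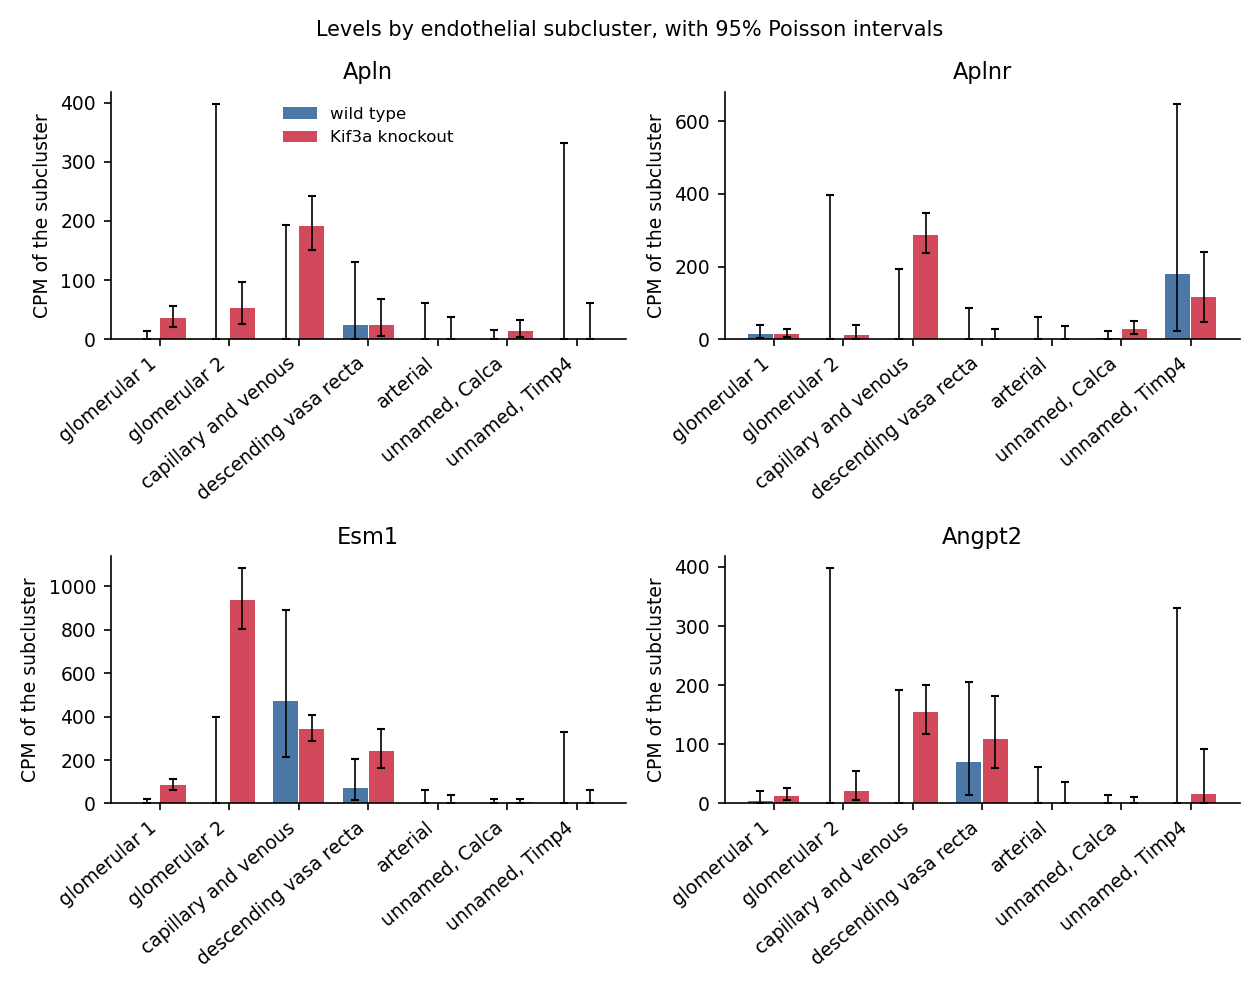
CPM of Apln, Aplnr, Esm1 and Angpt2 (y axes, over all UMIs of the subcluster) in 7 endothelial subclusters of the wild type and knockout libraries; error bars are 95% Poisson intervals. Knockout Esm1 is highest in glomerular-like subcluster 2 (936 CPM) and knockout Apln, Aplnr and Angpt2 are highest in the capillary and venous-like subcluster, where wild type has 4 cells and wide intervals.

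Of the 109 knockout Apln UMIs, 72 lay in capillary and venous-like cells (192 CPM, 150 to 242) and 29 in glomerular-like cells (40.0 CPM). The 4 wild type capillary and venous-like cells held 0 Apln UMIs among 19156, which allows up to 157 CPM. The knockout level was 1.22-fold that limit, and the interval of the log2 ratio, from -0.04, includes no difference. In glomerular-like cells wild type again had 0 UMIs, in 93 cells. The knockout level was 3.54-fold what that 0 allows, and the interval of the log2 ratio starts at 1.43. Arterial-like cells held none in either library, where 0 counts allow up to 50.4 CPM in wild type and 29.9 CPM in knockout.

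For Aplnr, 108 of the 134 knockout UMIs lay in the capillary and venous-like cells (288 CPM, 236 to 347), against 0 in the 4 wild type cells. That is 1.84-fold what the wild type 0 allows, and the interval of the log2 ratio starts at 0.55. Glomerular-like cells held 4 wild type UMIs (15.0 CPM) and 9 knockout UMIs (12.4 CPM), a log2 ratio of -0.37 (-2.12 to 1.87) that includes no difference. Without the capillary and venous-like subtype the log2 ratio of the whole endothelium was 0.69 (-0.48 to 2.21) for Aplnr, against 2.73 with it, in a comparison added after the data were seen. The unnamed subcluster 4 held 2 wild type UMIs (179 CPM) and 7 knockout UMIs (116 CPM), and its intervals overlapped those of the capillary and venous-like cells.

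The Esm1 ratio was largest in the glomerular-like cells, among the subtypes with UMIs in both libraries, with 1 UMI in 93 wild type cells (3.76 CPM) and 223 UMIs in 234 knockout cells (307 CPM), a log2 ratio of 5.77 (3.86 to 11.66). At a finer subclustering the libraries filled different glomerular-like subclusters: 65 of the 93 wild type cells lay in 1 with 24 knockout cells, which held 0 Esm1 and 0 Apln UMIs among 61719, and most knockout cells lay in those with 10 and 97 and with 18 and 114 cells. At the main resolution, subcluster 2, which also passed arterial markers, held 177 of the 223 knockout Esm1 UMIs (936 CPM, 803 to 1084). Of its 68 knockout cells, 47 had an Esm1 UMI (69.1%), and its 6 wild type cells held 0 Esm1 UMIs among 9264. Subcluster 1 held 1 wild type UMI (3.90 CPM) and 46 knockout UMIs (85.8 CPM). In capillary and venous-like cells the direction was the other way, with 9 UMIs in 2 of 4 wild type cells (470 CPM, 215 to 892) and 129 UMIs in knockout (344 CPM, 287 to 408), and the intervals overlapped. Descending vasa recta-like cells held 3 wild type UMIs (70.1 CPM) and 31 knockout UMIs (240 CPM), a log2 ratio of 1.58 (0.10 to 4.13). In the glomerular-like cells, 2 of the 6 members with at least 20 UMIs were at least 1.5-fold higher in knockout, against 13.5% of 6458 genes. They were Esm1 and Apln, which reached 20 UMIs only through the knockout library. Lower by as much was 1 member, Vegfa, against 11.5% of genes.

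The endothelial angiopoietin gene Angpt2 had 4 UMIs in wild type endothelium (6.17 CPM, 1.68 to 15.8) and 84 in knockout (47.8 CPM, 38.1 to 59.2), a log2 ratio of 2.79 (1.55 to 4.86). Of the knockout UMIs, 58 were in capillary and venous-like cells (155 CPM) and 14 in descending vasa recta-like cells (109 CPM, against 3 UMIs and 70.1 CPM in wild type). The 4 wild type capillary and venous-like cells had 0 UMIs, which allows a level above the knockout one, so this subtype gives no difference. Without it the log2 ratio was 1.42 (0.04 to 3.55). Mural-like cells, the pericytes and smooth muscle around vessels, stood above endothelium in wild type, with 4 UMIs (20.5 CPM, 5.59 to 52.5), and below it in knockout, with 6 (28.9 CPM, 10.6 to 62.9). Their intervals overlapped those of endothelium in both libraries.

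Among the 474 knockout endothelium-like cells, UMIs of Apln, Esm1 and Angpt2 tended to lie in the same cells. Of 41 cells with an Apln UMI, 23 (56.1%, 39.7 to 71.5) also had an Esm1 UMI, against 90 of 433 cells without Apln (20.8%, 17.1 to 24.9). For Angpt2 the counts were 14 of 41 (34.1%, 20.1 to 50.6) and 18 of 433 (4.16%, 2.48 to 6.49). The cells with Apln were deeper, at a median of 3735 against 2671 UMIs, and on the CPM scale they held 685 against 167 CPM of Esm1 and 320 against 17.1 CPM of Angpt2. Within the capillary and venous-like cells the same held for Angpt2, at 10 of 21 cells with Apln (47.6%) against 9 of 89 without (10.1%). Aplnr did not follow there, at 10 of 21 cells with Apln (47.6%) and 38 of 89 without (42.7%). All of these cells came from 1 library, so the counts describe that library.

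The TIE2 receptor gene Tek was an endothelial gene in both libraries, with 217 of 221 wild type and 546 of 576 knockout UMIs in endothelium. Its level was 334 CPM (291 to 382) in wild type and 311 CPM (285 to 338) in knockout, a log2 ratio of -0.11 (-0.34 to 0.13). The interval, which covers counting error only, lies within 1.5-fold in both directions. Over the alternatives to the processing the Tek ratio ranged from -0.33 to 1.61. By subtype the highest level was in glomerular-like cells, at 493 CPM in wild type and 389 CPM in knockout, a log2 ratio of -0.34 (-0.65 to -0.03).

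The TIE2 agonist gene Angpt1 had most of its UMIs outside endothelium, which held 6 of 751 in wild type and 5 of 951 in knockout. Its level differed among tubule classes. Thick ascending limb-like cells had only 1.88 CPM in wild type and 0.56 CPM in knockout, below endothelium with overlapping intervals. Intercalated-like cells had 7.58 and 4.51 CPM, and the unnamed cluster 23 held 186 knockout UMIs (20.2 CPM). Principal-like cells had 56 wild type UMIs (40.6 CPM, 30.7 to 52.8) and 386 knockout UMIs (20.8 CPM, 18.8 to 23.0), a log2 ratio of -0.98 (-1.37 to -0.54). In proximal tubule-like cells the level was 20.1 CPM (604 UMIs) in wild type and 11.4 CPM (132 UMIs) in knockout, a log2 ratio of -0.81 (-1.10 to -0.54). In distal convoluted tubule-like cells it was 10.2 and 15.7 CPM, a log2 ratio of 0.58 (-0.23 to 1.57) beside a median gene at 0.59. Mural-like cells, a known source of Angpt1, held 2 UMIs (10.3 CPM, 1.24 to 37.1) in wild type and 5 (24.1 CPM, 7.82 to 56.2) in knockout, too few to tell the libraries apart. Endothelium had 6 UMIs (9.25 CPM) in wild type and 5 (2.85 CPM) in knockout, below the 17.8 and 12.2 CPM of all other cells. Its log2 ratio of -1.68 (-3.75 to 0.28) includes no difference, and the part of RNA from other cells in it was not tested. The 6 wild type UMIs came from 3 cells, with 3 UMIs in arterial-like (50.4 CPM) and 3 in descending vasa recta-like cells (70.1 CPM).

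The VEGF receptor genes differed little between the clustered endothelium of the libraries. Kdr had 656 UMIs in wild type endothelium (1011 CPM, 935 to 1092) and 2158 in knockout (1228 CPM, 1177 to 1281), a log2 ratio of 0.28 (0.15 to 0.41). Flt1 had 542 UMIs (835 CPM, 767 to 909) and 1681 UMIs (957 CPM, 912 to 1004), a log2 ratio of 0.20 (0.06 to 0.34). Both intervals leave out 0 and lie below 1.5-fold. With doublets kept the ratios were 0.10 (-0.02 to 0.23) for Kdr and 0.030 (-0.11 to 0.17) for Flt1. With the endothelial subtypes weighted equally, Kdr was at -0.22.

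Kdr levels spread far more widely over the subtypes than between the libraries, as the plot of receptor levels shows. Kdr was highest in glomerular-like cells, at 2253 CPM in wild type and 2530 CPM in knockout, and lowest in arterial-like cells, at 50.4 CPM (3 UMIs) and 39.9 CPM (4 UMIs). Capillary and venous-like cells stood between, at 626 and 578 CPM, and descending vasa recta-like cells at 93.5 and 171 CPM. In the unnamed subcluster 4 Kdr was lower in knockout, at 1525 CPM in 6 wild type cells and 514 CPM in 28 knockout cells, a log2 ratio of -1.59 (-2.47 to -0.63). Flt1 was more even, from 470 CPM in wild type arterial-like cells and 499 CPM in knockout ones to 1072 and 1169 CPM in glomerular-like cells and 1346 and 1507 CPM in subcluster 4.

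**Figure D3:**
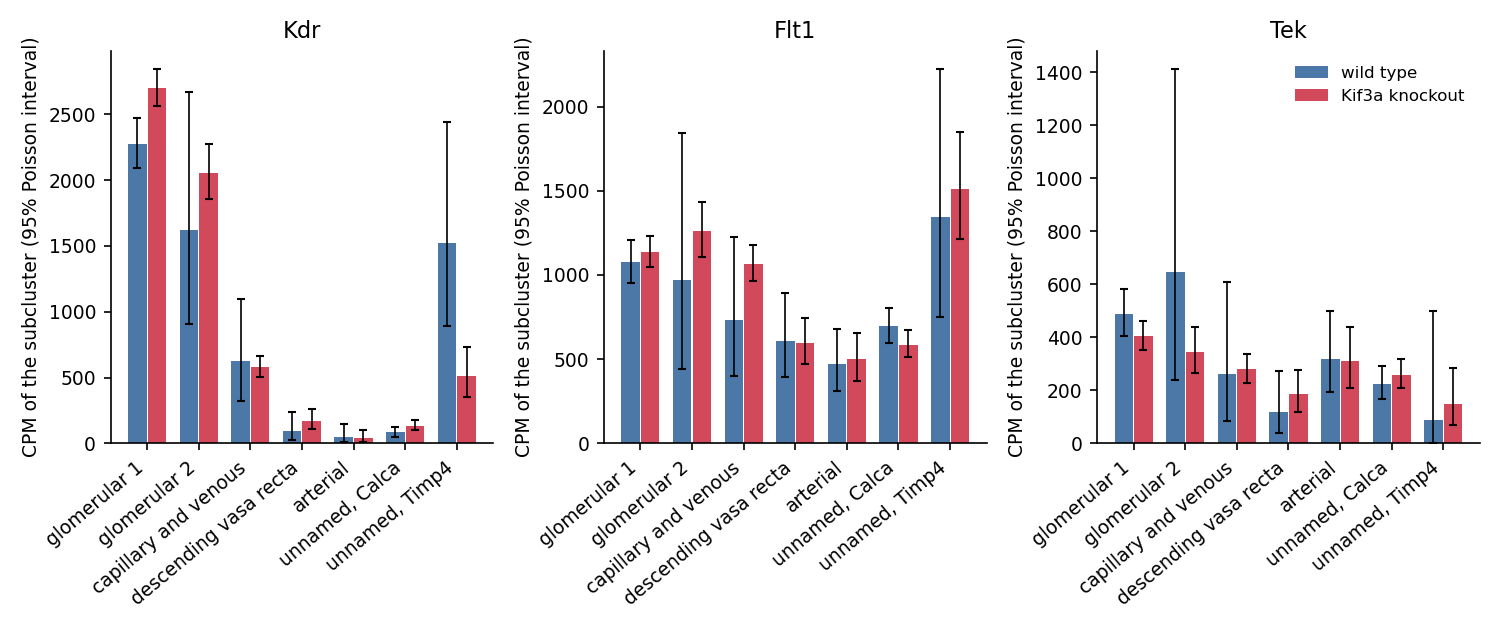
CPM of the receptor genes Kdr, Flt1 and Tek (y axes, over all UMIs of the subcluster) in 7 endothelial subclusters of both libraries; error bars are 95% Poisson intervals. Kdr spans from about the glomerular-like level of 2253 CPM to 50.4 CPM in arterial-like cells of the wild type, while wild type and knockout bars of a subcluster mostly have overlapping intervals.

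Outside endothelium Kdr stood at 0.14 CPM in wild type and 1.55 CPM in knockout, and Flt1 at 0.17 and 2.19 CPM. Flt1 in thick ascending limb-like cells was above this level, with 4 UMIs (1.25 CPM) in wild type and 71 (9.90 CPM) in knockout, a log2 ratio of 2.82 (1.56 to 4.90) beside a median gene at 0.48. The 71 UMIs lay in 49 of the 546 knockout cells of cluster 20, with at most 5 in a cell, and all cells of that cluster held 1 Kdr UMI and 0 Tek UMIs, whereas knockout endothelium held 2158 Kdr and 1681 Flt1 UMIs. Endothelial markers gave 37 UMIs in the 49 cells, of 249 in the cluster. Most wild type cells of this class (328 of 340) were in cluster 4 and most knockout cells (546 of 572) in cluster 20.

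Vegfa was highest in podocyte-like cells, the epithelium of the filter, and its intervals there overlapped between the libraries. The 17 wild type podocyte-like cells held 128 UMIs (1022 CPM, 853 to 1215) and the 30 knockout cells 156 UMIs (1228 CPM, 1042 to 1436), a log2 ratio of 0.26 (-0.08 to 0.61). All 5 tubule classes were lower by more than the counting error. Proximal tubule-like cells had 81.1 CPM in wild type and 41.4 CPM in knockout, a log2 ratio of -0.97 (-1.11 to -0.83). They held 69.8% of the wild type Vegfa UMIs, a share that goes with their number (2684 of 4317 cells), since all kept wild type cells stood at 82.1 CPM. Thick ascending limb-like cells had 84.6 and 29.0 CPM, a log2 ratio of -1.54 (-1.81 to -1.28). Distal convoluted tubule-like cells had 99.1 and 43.9 CPM, a log2 ratio of -1.18 (-1.51 to -0.84). In principal-like cells the levels were 69.7 and 41.1 CPM, a log2 ratio of -0.77 (-1.07 to -0.44), and in intercalated-like cells 82.1 and 52.5 CPM, a log2 ratio of -0.65 (-0.91 to -0.38).

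The Vegfa ratio was past 1.5-fold in each of these 5 tubule classes. At least 1.5-fold lower were 8.26% of all tested genes in proximal tubule-like, 9.08% in thick ascending limb-like, 8.14% in distal convoluted tubule-like, 13.4% in principal-like and 7.5% in intercalated-like cells. At least 1.5-fold higher were 34.8%, 43.4%, 50.1%, 20.6% and 26.5% in the same order. Trimmed-mean factors moved the median gene by 0.40, 0.42, 0.52, 0.03 and 0.28 on the log2 scale in these classes, and relative to them Vegfa was at -1.37, -1.96, -1.69, -0.80 and -0.93. The libraries filled different clusters of most of these classes: proximal tubule-like cells were mostly of clusters 0, 2, 6 and 10 in wild type and of cluster 14 in knockout, and distal convoluted tubule-like cells of clusters 3 and 26. Of the principal-like cells, 172 of 203 wild type cells lay in cluster 7, which also held 182 knockout cells, and the other knockout cells in clusters 21 and 11. Intercalated-like cells of both libraries shared clusters 5 and 9.

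**Figure D4:**
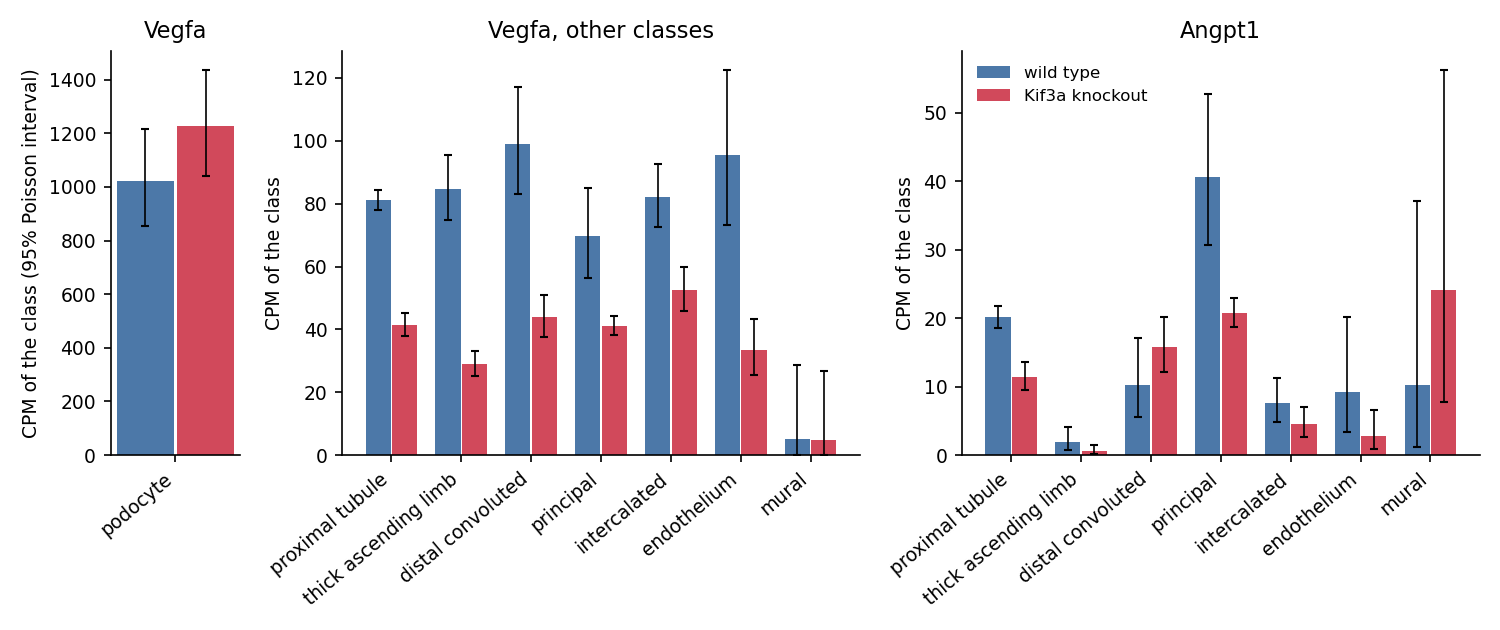
CPM of Vegfa (left in podocyte-like cells, middle in 7 other classes) and of Angpt1 (right) in wild type and knockout, over all UMIs of the class, with 95% Poisson intervals; the y axes differ. Vegfa is at 1022 and 1228 CPM in podocyte-like cells and lower in knockout in the 5 tubule classes, and Angpt1 is highest in wild type principal-like cells (40.6 CPM).

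In endothelium Vegfa had 62 UMIs in wild type (95.6 CPM, 73.3 to 123) and 59 in knockout (33.6 CPM, 25.6 to 43.3), a log2 ratio of -1.51 (-2.05 to -0.97). All other cells stood at 81.9 and 38.1 CPM, so the class level was close to that of the whole library in each. By subtype it was uneven. Arterial-like cells had 14 wild type UMIs (235 CPM, 128 to 394) and 20 knockout UMIs (200 CPM, 122 to 308), with a UMI in 5 of 10 and 9 of 13 cells. Knockout capillary and venous-like cells had 1 UMI (2.66 CPM, 0.07 to 14.8) and the knockout cells of subcluster 0 had 0 among 366493 UMIs, which allows up to 8.19 CPM. Glomerular-like cells had 147 CPM in wild type and 51.0 CPM in knockout, a log2 ratio of -1.52 (-2.21 to -0.84). The podocyte markers Nphs1, Wt1 and Clic3 were at 0 in glomerular-like cells of both libraries, and the summed podocyte list, with Podxl and Synpo among it, stood at 936 and 582 CPM.

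Other genes of these pathways were counted in endothelium, in lists chosen with earlier results of these data known. Beside every list count stand the shares of all 9017 genes with at least 20 UMIs, 12.9% at least 1.5-fold higher and 10.9% lower. Of 11 tip cell and sprouting genes with at least 20 UMIs, 7 were at least 1.5-fold higher and 1 lower, with a median log2 ratio of 1.46 beside 0.02 over all genes. Trp53i11 stood at 9.25 and 63.8 CPM (6 and 112 UMIs), a log2 ratio of 2.68 (1.62 to 4.26). Of its 112 knockout UMIs, 80 lay in capillary and venous-like cells, of which wild type had 4. The chemokine receptor gene Cxcr4 stood at 4.62 and 26.8 CPM (3 and 47 UMIs), 2.33 (0.90 to 4.86), and the adhesion gene Mcam at 30.8 and 123 CPM, 1.96 (1.33 to 2.74). Kcne3, a potassium channel subunit, was the lower one, at 26.2 and 2.85 CPM, a log2 ratio of -3.11 (-5.00 to -1.70). All of its 17 wild type and 5 knockout UMIs lay in arterial-like cells (10 and 13 cells), at 285 and 49.9 CPM. The basement membrane collagens Col4a1 (484 and 1335 CPM) and Col4a2 (318 and 921 CPM), Lama4 and Dll4 were the other higher genes, and these 4 are named after their values were seen. By subtype the summed list was at 5667 CPM in knockout capillary and venous-like cells against 887 CPM (17 UMIs) in the 4 wild type cells. Col4a1 and Col4a2 made up 1063 and 645 of those 2127 knockout UMIs, so the sums largely follow these 2 collagen genes. The summed list was at 4244 against 1963 CPM in descending vasa recta-like and 2461 against 1414 CPM in glomerular-like cells. There the 2 collagen genes held 277 and 200 of 547, and 684 and 544 of 1785, knockout UMIs. In arterial-like cells the list was at 1247 against 957 CPM, and in subcluster 0 at 1714 against 955 CPM. In subcluster 4 the list went the other way, at 1706 CPM in knockout against 3589 CPM (40 UMIs) in the 6 wild type cells, with Col4a1 at 497 CPM (335 to 709) against 1615 CPM (957 to 2553).

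Among the other VEGF ligands, receptors and coreceptors, 3 of 6 measured genes were higher and 0 lower, against 12.9% and 10.9% of all genes. The median log2 ratio was 0.52. The coreceptor gene Nrp2 stood at 32.4 and 97.9 CPM, a log2 ratio of 1.57 (0.94 to 2.33), and the lymphangiogenic receptor gene Flt4 at 35.5 and 86.0 CPM, 1.25 (0.64 to 1.98). The ligand gene Pgf had 0 UMIs in wild type and 21 in knockout (12.0 CPM). That is 2.59-fold what the wild type 0 allows, and the interval of the log2 ratio starts at 0.94. In knockout, 103 of 172 Nrp2, 43 of 151 Flt4 and 19 of 21 Pgf UMIs lay in capillary and venous-like cells. That subtype had only 4 wild type cells. In glomerular-like cells Nrp2 stood at 52.7 and 48.3 CPM, with overlapping intervals, and Pgf had 0 and 1 UMIs. Flt4 was higher there in knockout, at 60.2 and 127 CPM. Vegfb, a ligand of Flt1, was at 23.1 and 18.8 CPM, -0.33 (-1.22 to 0.69). The most abundant gene of the list, the coreceptor gene Nrp1, was slightly lower, at 1178 and 972 CPM, -0.28 (-0.40 to -0.15), and the summed list stood at 1319 and 1231 CPM. Nrp1 was named after its values were seen. With the wild type count of Pgf set at 3 the list's median was again 0.52.

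The angiopoietin-Tie list had no gene past 1.5-fold of 5 measured, with a median of 0.08. Its coreceptor gene Tie1 stood at 271 and 236 CPM, a log2 ratio of -0.21 (-0.46 to 0.06), and Ptprb, the phosphatase that dampens TIE2, at 1261 and 1396 CPM, 0.15 (0.03 to 0.26). Akt1 was at 0.35 (-0.01 to 0.75) and Pik3ca at -0.15 (-0.62 to 0.37).

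Of 4 other apelin genes, 1 was higher, and the median was 0.04, also with that gene's wild type count set at 3. It was Apela, which encodes the other peptide ligand of the apelin receptor, with 0 UMIs in wild type and 47 in knockout endothelium (26.8 CPM). That is 5.79-fold what the wild type 0 allows, and the interval of the log2 ratio starts at 2.18. Apela was a gene of principal-like cells, at 1406 CPM in wild type and 1097 CPM in knockout. Knockout proximal tubule-like cells held 15.0 CPM, macrophage-like cells 22.0 CPM and distal convoluted tubule-like cells 39.7 CPM, so the endothelial level lay between those of classes that are not known for the gene. The part of RNA from other cells in it was not tested. Gnai2 was at 0.24 (0.12 to 0.36), Arrb1 at -0.16 (-0.66 to 0.39) and Arrb2 at -0.40 (-1.64 to 1.07).

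The VEGF-induced early genes, hypoxia targets, flow-responsive genes and dissociation stress genes had medians below that of the tip cell genes. Their counts stand beside 12.9% of all genes higher and 10.9% lower. Of 4 VEGF-induced early genes, 0 were higher and 1 lower, with a median of 0.03. The lower one was Nr4a2, at 27.7 and 7.40 CPM, a log2 ratio of -1.89 (-3.06 to -0.80). Nr4a1 was at 0.58 (-0.34 to 1.73), Rcan1 at 0.18 (-0.43 to 0.87) and Plaur at -0.13 (-0.53 to 0.30). Of 10 hypoxia targets, 3 were higher and 2 lower, with a median of 0.22. The glucose transporter gene Slc2a1 had 1 and 34 UMIs, 3.09 (1.07 to 9.0), and Egln3 was at 0.95 (-0.46 to 3.08). Bnip3 was at -1.10 (-1.74 to -0.45) and Ndrg1 at -0.67 (-1.0 to -0.33).

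Of 4 flow-responsive genes, 0 were higher and 2 lower, with a median of -0.57. The anticoagulant receptor gene Thbd stood at 482 and 179 CPM, a log2 ratio of -1.43 (-1.66 to -1.20), and Klf4 at 578 and 311 CPM, -0.90 (-1.09 to -0.70). Klf2 was at -0.25 (-0.33 to -0.17) and Nos3 at -0.02 (-0.49 to 0.50). Dissociation stress genes had 5 of 15 higher and 2 lower, with a median of -0.02. Fos had 1 and 24 UMIs, 2.59 (0.53 to 8.51), Egr1 was at 2.19 (1.18 to 3.63), Socs3 at 1.54 (1.01 to 2.15) and Hspa1a at -1.44 (-2.38 to -0.49). In the cells at or below the median share of stress UMIs, Esm1 was at 2.23 (1.47 to 3.22) and Vegfa at -2.34 (-3.37 to -1.40).

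**Figure D5:**
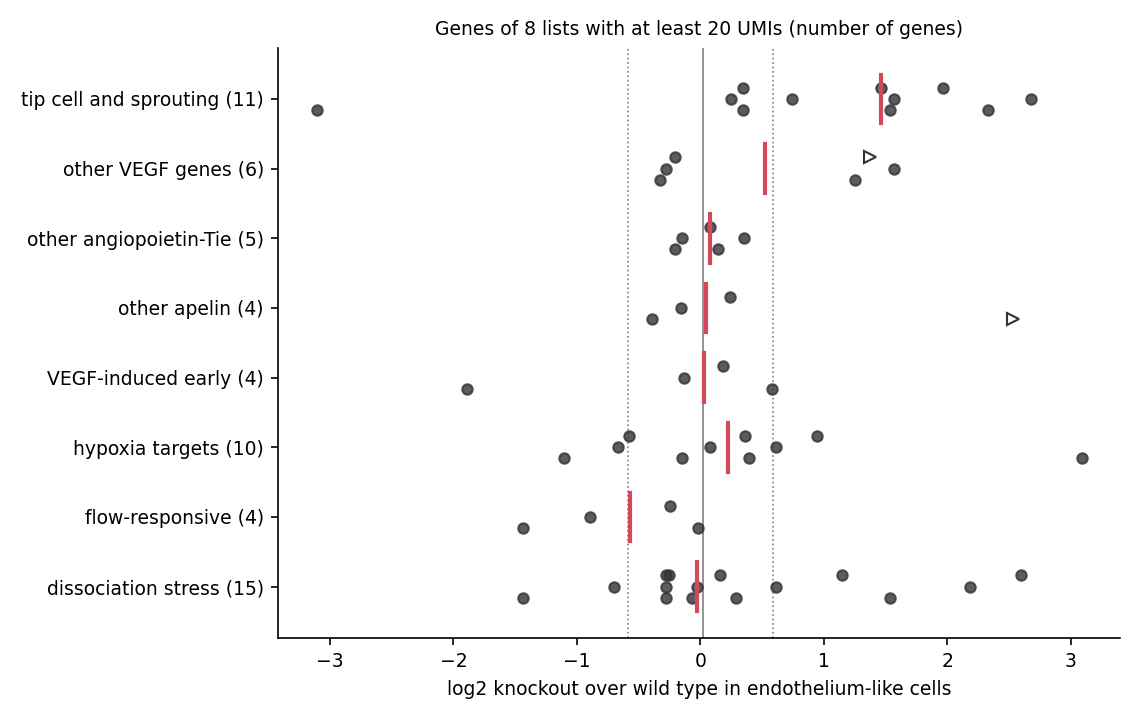
Log2 ratio of knockout over wild type in endothelium-like cells (x axis) for the genes of 8 lists, 1 dot a gene with at least 20 UMIs and the number of genes in brackets; open triangles are genes without a wild type UMI, with that count set at 3, red ticks are list medians, the grey line is the median of all genes and dotted lines mark 1.5-fold. The tip cell list has a median of 1.46 and the flow-responsive list one of -0.57, while the dissociation stress list spreads to both sides, from -1.44 to 2.59, with a median of -0.02.

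Likeness of pattern was measured as Pearson's r of log2(CPM+1) over 28 profiles of a class in a library, among 14608 genes, and is given as a description, since profiles share libraries and depth. The genes most like Aplnr were Ackr2 (0.97), Gm6213 (0.96) and Dlk1 (0.95), and those most like Esm1 were Aplnr (0.95), Erg (0.94) and Bcl6b (0.94). Angpt2 was closest to Spry4 (0.94), Galnt15 (0.93) and Gja4 (0.92), and Apln, less closely, to Nsg1 (0.79), Afap1l1 (0.79) and Lhx6 (0.76). Tek was closest to Myrip, Cyyr1 and Clec14a (0.96, 0.96 and 0.95), Kdr to Fam167b, Cd300lg and Gm14226 (0.95, 0.95 and 0.94), and Flt1 to Cdh5, She and Kdr (0.94, 0.93 and 0.93). The ligands Angpt1 and Vegfa had looser neighbours, Tbx2, Zfp2 and Csrp2 for Angpt1 (0.75, 0.74 and 0.74) and Fndc5, Gm16794 and Tmem80 for Vegfa (0.78, 0.76 and 0.75). Of the genes like Esm1, Erg differed little in endothelium, at 46.2 CPM in wild type and 56.4 CPM in knockout.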

How the data were processed

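The authors deposited a count matrix per library with UMI counts per gene and barcode, from 10x Chromium 3′ v3 libraries of kidney cells freed with a cold-active protease, per the labels' protocols. The file headers name Cell Ranger 3.1.0, the submitters' processing notes Cell Ranger 3.0.2, Seurat 3.1.1 and mm10. Barcodes with at least 500 UMIs, 200 genes and under 50% mitochondrial UMIs were kept, and Scrublet removed 54 wild type (1.24%) and 170 knockout (2.35%) doublets. Cells were clustered in scanpy 1.11.5 (30 components, 15 neighbours, Leiden resolution 1, seed 0) without the member genes, giving 29 clusters, of which 1, 22, 23 and 27 stayed unnamed. Endothelium-like cells (clusters 8 and 12) were reclustered at resolution 0.5. A name needed 3 fixed markers at 50 CPM, 20 UMIs and 2-fold over the other clusters, and clusters whose leading genes or markers pointed as much to another type stayed unnamed. This rule, and fat cell genes used only to withhold names, were written after the clusters were seen. Members, lists and named genes (all members, up to 4 genes per list by size of ratio, 3 most alike genes per member) were chosen with earlier results of these data known. Summed UMIs were divided by class totals (CPM). Log2 ratios, and counts past 1.5-fold, add 0.5 UMIs to each sum, with an exact conditional 95% interval. Sums carry exact Poisson and shares exact Clopper-Pearson intervals, and 0 counts allow 3. Folds over a wild type 0 set it at 3 and leave out the counting error of the knockout sum. List genes needed 20 UMIs over both libraries. No p-value was computed with 1 library per genotype. The ratio script was tested on simulated data. Scaling, filters, clustering, thinning and cell choice were varied.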

Additional observations from a re-analysis of the deposited data

Results flagged for a closer look

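The barcodes left out by the filters, doublets included, entered none of the main comparisons, and 7 members had a higher level in those of the knockout library than in those of the wild type library, with Poisson intervals that did not overlap. In knockout the levels were 2.96 CPM for Apln, 2.96 CPM for Aplnr, 7.48 CPM for Esm1, 1.04 CPM for Angpt2, 8.35 CPM for Tek, 47.7 CPM for Kdr and 32.9 CPM for Flt1, over 884 barcodes. In wild type, over 2621 barcodes, the levels were 0.32 CPM for Apln, 0 UMIs for Aplnr and Esm1, 0.05 CPM for Angpt2, 0.87 CPM for Tek, 3.14 CPM for Kdr and 1.41 CPM for Flt1. These barcodes were not sorted by cell type, so the levels also depend on how much endothelium each set held. With doublets kept, endothelium-like cells numbered 163 in wild type and 526 in knockout, against 155 and 474 without. The part of this in the levels was not tested.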

How the results depend on the processing

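Over 236 alternatives to 42 results, 203 stayed within the counting interval of the value as reported (for counts, within 1.5 times; for list medians, within 1.5-fold) and 33 moved outside it. No value past 1.5-fold changed sign. Ratios in this section are log2 ratios of knockout over wild type. Trimmed-mean factors put Vegfa at -1.37 in proximal tubule-like, -1.96 in thick ascending limb-like, -1.69 in distal convoluted tubule-like cells and -0.93 in the intercalated class, and median-of-ratios factors at -1.37, -1.96, -1.70 and -0.93. Totals without mitochondrial and the 20 most abundant genes put it at -1.19, -1.93 and -1.61 in the first 3. In proximal tubule-like cells it was -1.32 with a mitochondrial limit of 25% and -0.83 with at least 1000 UMIs per cell. With the endothelial subtypes weighted equally, Aplnr was at 1.16, Esm1 at 0.71, Vegfa at -0.74 and Kdr at -0.22. In cells at or below the median share of dissociation stress UMIs (81 wild type and 234 knockout), Esm1 was at 2.23, Vegfa at -2.34 and Flt1 at 0.36. Endothelium was also picked by marker UMIs per cell, with at most 1 UMI of podocyte, mural, immune and fibroblast markers. These 67 and 184 cells, of which 46 and 173 were also endothelium-like, gave Aplnr 4.34, Esm1 6.79, Tek 1.61, Kdr 1.75 and Flt1 2.13, and 7 members at least 1.5-fold higher against 4. Chosen after seeing the data, leaving out the capillary and venous-like subtype gave Aplnr 0.69, Esm1 4.41, Angpt2 1.42 and Kdr 0.46. With doublets kept, Kdr was at 0.10 and Flt1 at 0.030. Thinning to 1000 UMIs moved the Vegfa difference in share of positive endothelium-like cells to -7.57 percentage points, from -17.6. With list genes taken from 1 UMI, VEGF-induced early genes had 3 higher against 0, other apelin genes 2 lower against 0 and other VEGF genes 1 lower against 0. From 100 UMIs, hypoxia targets had 0 higher and 1 lower against 3 and 2, dissociation stress genes 3 and 0 against 5 and 2, apelin genes 0 higher against 1, and tip cell and early genes 0 lower against 1 each. The cause of these shifts was not tested. Across 15 alternatives Apln ranged from 3.51 to 6.58 and Angpt2 from 1.42 to 4.23. Wild type counts of 1 to 14 UMIs limit the 4 high genes. No paired analysis was possible because each genotype has 1 library.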

Other observations

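At a finer subclustering of endothelium (resolution 1), again without the member genes, 23 knockout cells and 0 wild type cells formed a subcluster with Npy, AA467197 and Apln among its leading genes that stayed unnamed. Its 119236 UMIs held 37 of Apln (310 CPM), 25 of Aplnr (210 CPM), 73 of Esm1 (612 CPM) and 22 of Angpt2 (185 CPM), and 0 of Vegfa. Kdr stood at 386 CPM, Flt1 at 948 CPM and Tek at 143 CPM there. It was formed in 1 library, so a cell state and that library cannot be told apart.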
